A study of Macaca fascicularis with 36 samples.

Results

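The 12 genes described here stood at least 20 times higher in the frontal cortex of some cynomolgus monkeys (Macaca fascicularis) than in that of others. ENSMFAG00000003765 had no counts at all in some animals, and ENSMFAG00000001864 had none in animal 1504. They were chosen by level. In 20 libraries (letters A and C of 10 animals), a gene qualified when its exonic width was over 200 bases, when at least 1 animal had it at 5 CPM or more in both libraries, and when at least 1 animal had it in both libraries at 1/20 of that level or less. CPM is the count of a gene times 1e6 divided by the total count of its library. Of 28623 genes in the tables, 12306 reached the level limit, and 12 of these (0.0975%) also met the limit of 1/20. The rule also names 3 genes to leave out, and 0 of them met both limits.

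Bulk RNA was sequenced from 12 animals, with 3 libraries each marked A, B and C, on day 2 after an intrathecal injection. The groups of 4 animals received the agonist antibody Para09, which is directed at human TREM2, a receptor of microglia, at 50 mg/kg (animals 4501 to 4504) or 200 mg/kg (5501 to 5504), or the isotype control antibody anti-gD at 200 mg/kg (1501 to 1504). All animals received an antibody by the same route, no genetic change is named in the labels, and age, sex and origin were not among the labels used here, nor was the meaning of the letters. The sample numbers in the titles form a first run of 16 libraries (letter B of every animal, and A and C of animals 1504 and 5501) and a second run of 20 libraries, the ones the rule used. Libraries held 15.1 to 37.0 M counts (M is 1e6), at which 3 counts correspond to 0.0811 to 0.199 CPM. Library 5501B stood apart, with 15779 genes detected against 17974 to 19677 in the others. Counts of genes passing the limits in letter B, edgeR counts under 0.05 and main fold changes at 200 mg/kg are also given without it. Shares of genes without overlap and of low permutation p are given only with it.

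Cynomolgus monkeys are outbred, and animals of an outbred species carry different alleles at many genes. Transcript levels of some genes are known to differ widely between individuals of such a species. An exonic count records reads assigned to a gene model, so a low count says that few reads were assigned and not why. The genes carry Ensembl-type identifiers, and 0 of the 28623 identifiers matched the RefSeq table at hand (assembly T2T-MFA8v1.1), so names, functions, sequences and positions are not given, and the tissue could not be checked against markers.

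Over the 120 combinations of the 12 genes with the 10 animals, an animal lacked the gene in 27, with both A and C at 1/20 or less of the gene's highest level. In 61 it held the gene, with both at 1/5 or more, and 32 were intermediate. These values chose the genes and are a description without a test. Every one of the 10 animals lacked at least 1 gene. Animal 1502 lacked the most, 5 genes, and animal 4501 lacked 1. ENSMFAG00000003765 was among the lacking genes in 9 of the 10 animals, and in animal 4501 it was the only one. The genes just inside the 1/20 limit were ENSMFAG00000036549, ENSMFAG00000002270 and ENSMFAG00000038067, whose highest level was 21.9, 22.7 and 23.5 times the lowest. Just outside were ENSMFAG00000003114, ENSMFAG00000035723 and ENSMFAG00000033097, at 14.6, 13.6 and 13.2 times. At the level limit, ENSMFAG00000017288 was inside at 5.22 CPM, followed by ENSMFAG00000002083 at 5.74 CPM and ENSMFAG00000001864 at 5.99 CPM. Outside were ENSMFAG00000041667 at 4.68 CPM, ENSMFAG00000001319 at 4.35 CPM and ENSMFAG00000033161 at 4.29 CPM.

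**Figure D1:**
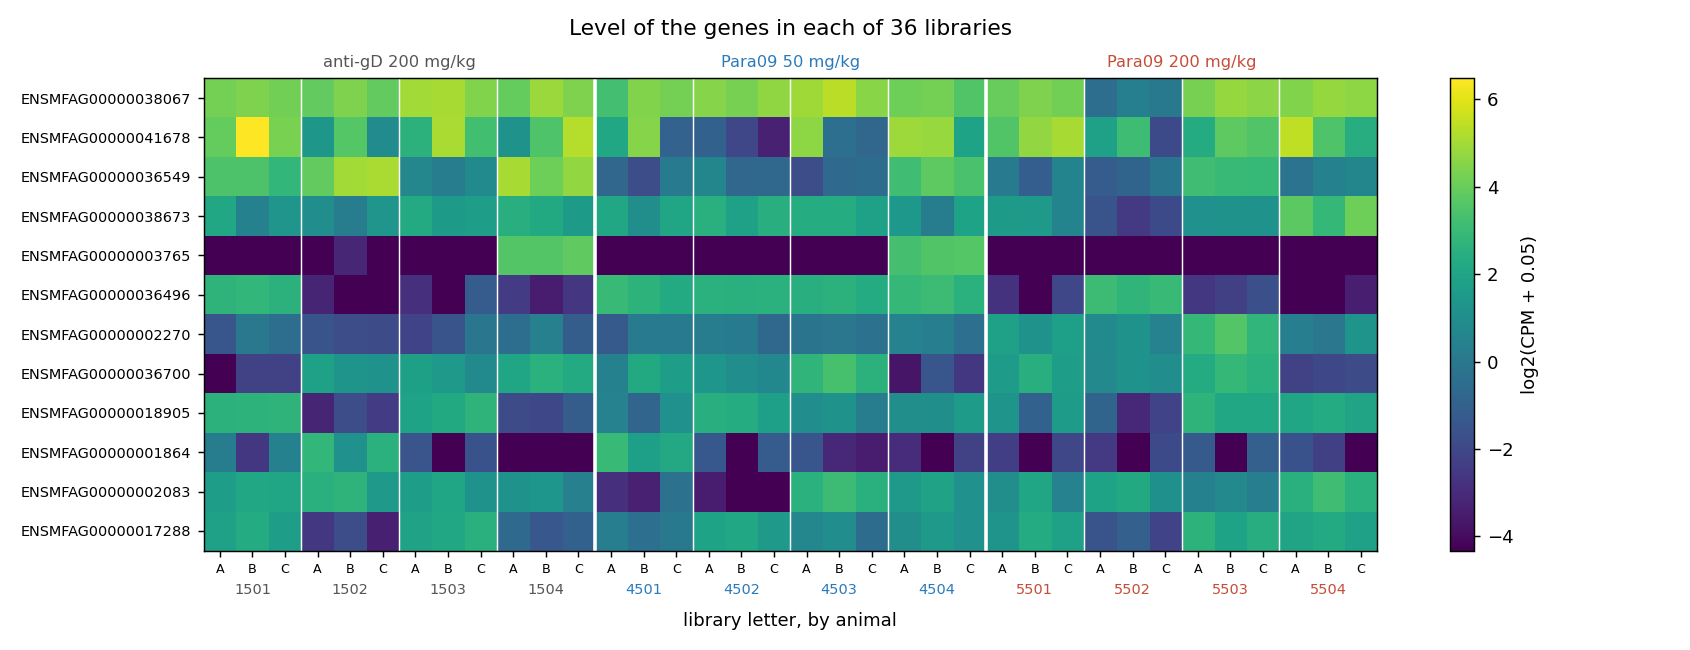
Level of each of the 12 genes (rows) in the 36 libraries (columns, letters A, B and C side by side for each animal), as log2(CPM + 0.05), with animals ordered by treatment. Dark blocks of 3 libraries are animals with few or no counts, such as all animals but 1504 and 4504 for ENSMFAG00000003765, whereas ENSMFAG00000041678 varies within animals.

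The clearest separation was seen for ENSMFAG00000003765, which was present in 2 animals and listed at 0 in nearly all libraries of the other 10. In animal 4504 it stood at 9.79, 11.7 and 12.3 CPM in libraries A, B and C, on 362, 216 and 307 counts. In control animal 1504, which the rule did not use, it stood at 12.1, 11.8 and 14.3 CPM, on 265, 286 and 248 counts. Among all other libraries a single count was found, in 1502B. The 2 animals belong to different groups, 50 mg/kg and anti-gD, and their libraries come from both runs of sample numbers.

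ENSMFAG00000036496 divided the animals evenly, with 6 animals above and 6 below the largest step in level, a ratio of 29.8. Summed over the 3 libraries, the 6 animals above the step stood at 5.36 CPM or more and the 6 below at 0.180 CPM or less. The animals with the gene were 1501, all 4 animals at 50 mg/kg, and 5502, and their single libraries ran from 4.80 CPM (4501C) to 8.51 CPM (5502A). In the animals without it, the highest library was 1503C at 0.386 CPM. Libraries of the same animal never fell on different sides of this step.

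ENSMFAG00000036700 was near the floor in 3 animals, 1 from each group. Control animal 1501 stood at 0, 0.161 and 0.172 CPM in A, B and C. Animal 4504 stood at 0.0270, 0.325 and 0.120 CPM, and animal 5504 at 0.161, 0.207 and 0.224 CPM. The libraries of the other 9 animals ran from 1.28 CPM (4501A) to 10.1 CPM (4503B). Between the 2 sets the animal levels stepped 9.74-fold, from 0.195 to 1.90 CPM.

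In 4 genes the largest step set a single animal below the other 11: animal 5502 for ENSMFAG00000038067 and ENSMFAG00000038673, and animal 4502 for ENSMFAG00000002083 and ENSMFAG00000041678. ENSMFAG00000038067 stood at 0.688, 1.21 and 0.996 CPM in animal 5502 and at 9.53 to 40.6 CPM in every other library, so this animal had a low level and not an absence. ENSMFAG00000038673 was also lowest in animal 5502, at 0.301, 0.128 and 0.217 CPM. Animal 5504 of the same group was the highest for that gene, at 13.4, 7.18 and 16.9 CPM, and the other 10 animals lay between 1.14 and 5.80 CPM. The other members were not uniformly low in animal 5502, which held ENSMFAG00000036496 at 7.75 CPM, the highest animal level of that gene.

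ENSMFAG00000002083 had 1 count in library 4502A and 0 in 4502B and 4502C. Animal 4501 was nearly as low in A and B, at 0.0916, 0.0483 and 0.792 CPM, of which C was higher than A and B. All other animals lay between 1.19 CPM (5503C) and 8.99 CPM (5504B). Both low animals had received 50 mg/kg, while the other 2 animals of that dose stood at 6.45 and 2.78 CPM over their 3 libraries.

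ENSMFAG00000036549 formed a high set of 5 animals and a low set of 7, parted by a 5.63-fold step from 1.45 to 8.18 CPM. The high set held 3 control animals, 1501 at 10.97, 10.96 and 7.01 CPM, 1502 at 14.6, 31.7 and 34.2 CPM, and 1504 at 33.3, 17.0 and 26.2 CPM. It also held animal 4504 at 9.01, 13.9 and 10.3 CPM and animal 5503 at 8.87, 8.03 and 7.56 CPM. Single libraries of the other 7 animals ran from 0.241 to 1.76 CPM. Counts were found in every library of the low set, so this gene was high or low and never absent.

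ENSMFAG00000001864 was high in 2 animals, 1502 at 7.07, 2.18 and 5.99 CPM and 4501 at 7.70, 3.38 and 4.58 CPM in A, B and C. Control animal 1501 was between, at 1.16, 0.120 and 1.29 CPM, and all other libraries held 0.442 CPM or less. The gene had 0 counts in 10 libraries, among them the 3 of animal 1504. In both high animals B was below A and C.

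The levels of ENSMFAG00000002270 were graded rather than split. Animal 5503 was highest at 7.22, 11.996 and 6.81 CPM, followed by animal 5501 at 3.57, 2.27 and 3.36 CPM. Control animal 1502 was lowest at 0.299, 0.242 and 0.232 CPM, and by A and C it was the only animal under 1/20 of the highest. In letter B animal 1503, at 0.299 CPM, was under 1/20 as well. The largest step between neighbouring animals was 2.80-fold, the second smallest step among the 12 genes, and 8 of the 10 animals were intermediate.

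ENSMFAG00000041678 differed between libraries of the same animal as well as between animals. Animal 4502 was low in all 3 libraries, at 0.466, 0.194 and 0.0482 CPM, and over the 3 it was 14.8-fold below the next animal. That step holds for the summed libraries only. Single libraries of other animals were about as low, such as 5502C at 0.217 CPM and 4501C at 0.484 CPM. Animal 1501 was high in all 3, at 15.1, 89.2 and 19.7 CPM. Animal 4503 stood at 25.3 CPM in A but at 0.730 and 0.540 CPM in B and C, and animal 1504 at 2.25, 11.3 and 39.2 CPM. Over the 5 animals that held the gene, A and C differed by a median of 2.31-fold and at most 8.34-fold. For the other genes this median was 1.06 to 1.58-fold.

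The 2 shortest genes, ENSMFAG00000018905 (294 bases) and ENSMFAG00000017288 (306 bases), had the same 3 animals at the lowest levels. Over 3 libraries they stood at 0.146 and 0.128 CPM in control animal 1502, which lacked both by the rule. Animal 5502, intermediate for both by the rule, stood at 0.274 and 0.290 CPM. Control animal 1504, which the rule did not use, had 0.268 and 0.458 CPM and was intermediate for both on the scale of the B libraries. The other 9 animals had at least 1.36 CPM of the first and 0.965 CPM of the second, so the step was 4.98-fold for the first and 2.11-fold for the second, the smallest of the 12 genes. In the 24 libraries with at least 20 counts of each gene, the first had a median of 1.11 times the counts of the second (0.731 to 2.23). In 5501B the counts were 11 and 117, while 5501A had 47 of each. The labels do not say how reads that match several places were counted. Near-identical or overlapping genes may exchange counts, and their levels are uncertain to that extent. Whether this applied to these 2 genes was not tested.

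**Figure D2:**
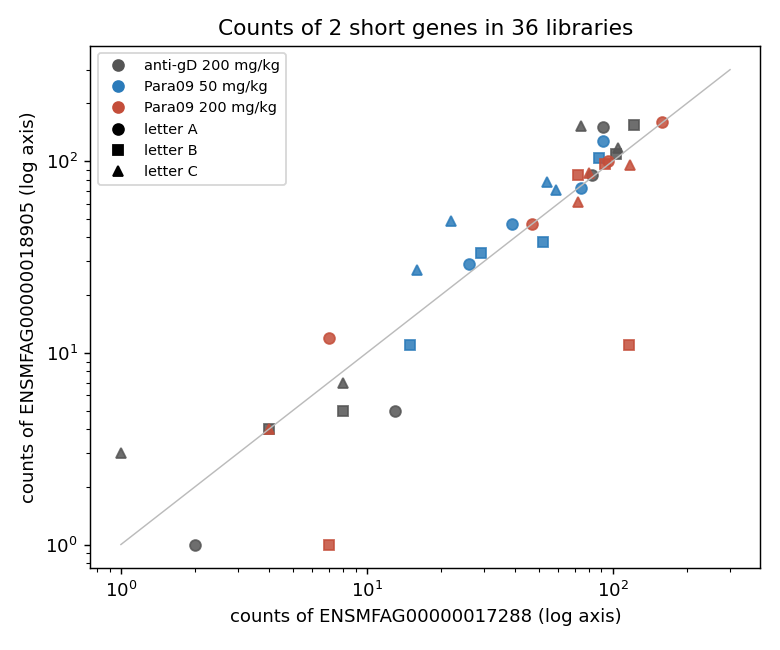
Counts of ENSMFAG00000018905 (vertical, log axis) against ENSMFAG00000017288 (horizontal, log axis) in 36 libraries, coloured by treatment, with a marker for each letter and a grey line of equal counts. Libraries with few counts of 1 gene also had few of the other, and 5501B lies apart with 11 against 117 counts.

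Among all 66 pairs of the 12 genes, 5 had the same set of lacking animals, each set being 1 animal. Besides the short pair with ENSMFAG00000002270 (animal 1502), these were ENSMFAG00000038067 with ENSMFAG00000038673 (animal 5502) and ENSMFAG00000041678 with ENSMFAG00000002083 (animal 4502). Sets of more than 1 animal differed from gene to gene. Widths ran from 294 to 14703 bases, with a median of 4109 against 3102 for the genes that reached the level limit. Per length, as the RPKM values deposited by the authors, the short pair had the highest medians over the 36 libraries, 4.80 for ENSMFAG00000017288 and 4.46 for ENSMFAG00000018905. The lowest were 0.00714 for ENSMFAG00000001864 and 0 for ENSMFAG00000003765, which most libraries lacked.

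Letter B of the same 10 animals was not used by the rule and served as a check of the same measure. A B library was called low at 1/20 or less, and high at 1/5 or more, of the highest B level of that gene. In all 27 combinations in which an animal lacked a gene by A and C, its B library was low, and 9 of the 27 came from ENSMFAG00000003765. With B judged against the highest level in A and C, 25 of the 27 were low. Of the 61 combinations in which an animal held a gene, B was high in 56 and low in 0. Of the 32 intermediate combinations, B was low in 14, intermediate in 14 and high in 4, and 5 of the 14 low ones each came from ENSMFAG00000036549 and ENSMFAG00000001864. The 5 holding combinations with B neither high nor low were ENSMFAG00000041678 in animals 5503 and 5504, ENSMFAG00000036700 in 4502, ENSMFAG00000018905 in 4501 and ENSMFAG00000002083 in 5503. The highest B level in a lacking animal was 1.21 CPM, of ENSMFAG00000038067 in animal 5502. These B libraries carry another letter than those of the rule and belong to the other run of sample numbers.

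**Figure D3:**
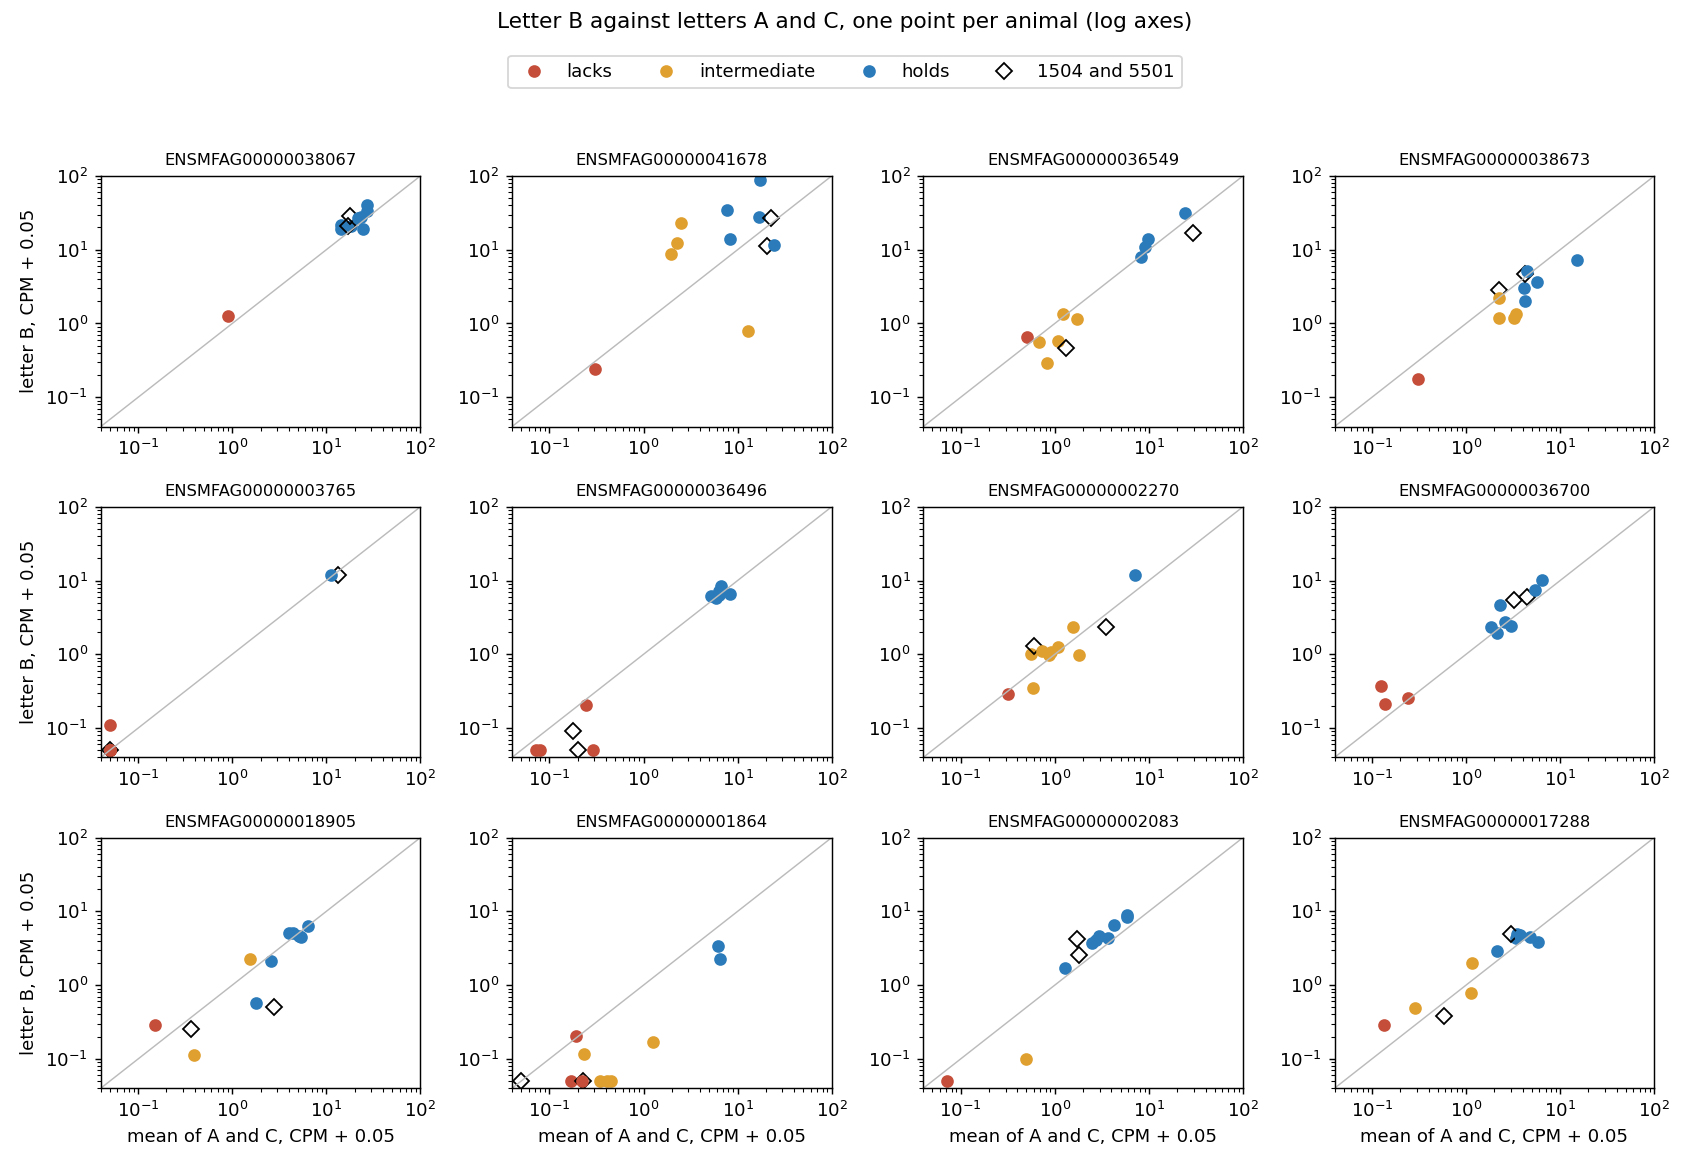
Letter B (vertical) against the mean of letters A and C (horizontal), both as CPM + 0.05 on log axes, 1 panel for each gene and 1 point for each animal. Red points lack the gene by A and C, blue points hold it, orange points are between, open diamonds are animals 1504 and 5501, and the grey line marks equal levels. Every red point is at the low end of letter B as well.

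The level in B was not the same as in A and C for every gene. In the animals that held the gene, the ratio of B to the mean of A and C had a median of 0.442 for ENSMFAG00000001864 (2 animals) and 0.639 for ENSMFAG00000038673 (5 animals). For ENSMFAG00000002083 it was 1.50 (8 animals) and for ENSMFAG00000036496 it was 1.06 (6 animals). In these 10 animals the letter and the run of sample numbers cannot be told apart.

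The spread between animals could also be read in letter B alone. Over the 10 B libraries, 14373 genes averaged 1 CPM or more, and their median SD of log2(CPM + 0.5) was 0.306. ENSMFAG00000041678 had an SD of 2.14 and ranked 5th, ENSMFAG00000036549 ranked 7th with 1.98, and ENSMFAG00000036496 ranked 9th with 1.94. The lowest rank was 111, of ENSMFAG00000038673, with 1.03. ENSMFAG00000001864 did not reach a mean of 1 CPM in B and was not ranked. When the limits were applied to single B libraries of all 12 animals, 101 of 12610 genes (0.801%) passed. These held 10 of the 12 genes, which is 83.3% of the 12 and 9.90% of the 101. Without library 5501B it was 69 genes (0.551%), and in the B libraries of the 10 animals of the rule 67 (0.536%), each time with 10 of the 12 genes among them.

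Animals 1504 and 5501 had no part in the choice of the genes. On the scale of the B libraries, all 3 libraries of animal 1504 were high for 5 genes and low for 2, and 5 genes were between. The low ones were ENSMFAG00000036496, at 0.137, 0.0414 and 0.115 CPM, and ENSMFAG00000001864, with 0 counts. Animal 5501 was high for 3 genes, low for 3 and between for 6. It had 0 counts of ENSMFAG00000003765, and ENSMFAG00000036496 stood at 0.102, 0 and 0.198 CPM. The last low gene of this animal was ENSMFAG00000036549, at 1.07, 0.420 and 1.43 CPM. With 5501B left out, A and C of this animal still stood at 0.198 CPM or less of ENSMFAG00000036496 and at 0 for ENSMFAG00000003765.

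The design also asks whether levels differ with treatment. The animal was the replicate, so its 3 libraries were added up, and edgeR tested all 17360 genes that passed its filter on low counts. The sums include the A and C libraries by which the genes were chosen, so their p-values are not independent of the choice. Letter B alone was not used in it. The filter removed ENSMFAG00000003765 and left 11 of the 12. At a Benjamini-Hochberg adjusted p under 0.05, edgeR called 0 genes (0%) in any of the 3 comparisons, and hence none of the 11. The unadjusted p was under 0.05 for 2 of the 11 at 200 mg/kg against anti-gD (ENSMFAG00000002270 and ENSMFAG00000036549; 691 of all genes tested, 3.98%). It was so for 0 of the 11 at 50 mg/kg against anti-gD (996 genes, 5.74%) and for 1, ENSMFAG00000002270, at 200 against 50 mg/kg (441 genes, 2.54%). The median log2 fold change of the 11 was 0.01, -0.13 and 0.14 in these comparisons, against 0.00, 0.00 and 0.01 over all genes tested. Without library 5501B, the unadjusted edgeR p was under 0.05 for 1 of the 11 at 200 mg/kg against anti-gD (733 of 17377 genes tested). It was so for 0 at 50 mg/kg against anti-gD (1201 genes) and for 1 at 200 against 50 mg/kg (402 genes). The first 2 comparisons share the control animals and the last shares animals with both. The animals at 200 mg/kg lay entirely below those given anti-gD for 0 of the 11 (0.95% of all genes tested). Those at 50 mg/kg lay entirely above them for 0 (2.09%) and below for 0 (1.91%), and at 200 against 50 mg/kg 0 lay entirely below (1.27%).

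ENSMFAG00000002270 was the 1 gene of the 11 whose animals at 200 mg/kg lay entirely above those given anti-gD, an arrangement found for 1.36% of all genes tested. Its animals stood at 3.02, 1.71, 8.45 and 1.49 CPM (5501 to 5504) against 0.655, 0.256, 0.422 and 0.821 CPM (1501 to 1504). The group levels were 3.67 CPM ± 3.26 and 0.538 CPM ± 0.250 (SD, n = 4 animals). At 50 mg/kg the level was 0.922 CPM ± 0.133 (SD, n = 4 animals). The log2 fold change at 200 mg/kg was 2.76 (SE 0.53), with an unadjusted p of 0.000208 and an adjusted p of 0.601 in edgeR. The animals that set the choice of this gene, 5503 and 1502, stand on opposite sides of that contrast. DESeq2 gave the same fold change (2.77) on the same sums and called it, at an adjusted p of 0.000126, as 1 of 14 genes called (0.066%). Over the 19 alternatives, DESeq2 included, its adjusted p ran from 0.000126 to 1.00.

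Animal 5503 carried part of that difference, since the log2 fold change was 1.93 without it. It was 2.63 in letter B alone and 2.80 without library 5501B, a fit that still holds A and C. In A and C of the 10 animals, the libraries by which this gene was chosen, it was 2.98, which is no separate check. In letter B, which the rule did not use, the groups overlapped, with 0.930 to 11.996 CPM at 200 mg/kg and 0.242 to 1.24 CPM with anti-gD. The exact two-sided permutation p there was 0.0857 for 4 animals against 4, where the smallest possible is 0.0286, and it was also 0.0857 without 5501B. Against 50 mg/kg the log2 fold change was 1.97 (SE 0.51, unadjusted edgeR p 0.00221, adjusted p 0.961), again without overlap of the animals (1.41% of all genes tested), and it was 1.14 without animal 5503 and 2.01 without library 5501B.

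ENSMFAG00000036549 was lower at both doses than with anti-gD in mean level, at 2.73 CPM ± 3.65 for 200 mg/kg and 3.13 CPM ± 4.94 for 50 mg/kg against 15.9 CPM ± 12.5 (SD, n = 4 animals). The groups overlapped, since control animal 1503 was low and animals 4504 and 5503 were high. The log2 fold change was -2.55 (SE 1.17, edgeR adjusted p 1.00) at 200 mg/kg and -2.33 (SE 1.16, adjusted p 0.866) at 50 mg/kg. Without library 5501B the first was -2.51, without animal 5503 it was -4.14, and without animal 4504 the second was -4.57, with neither called.

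ENSMFAG00000036496 was present in all 4 animals at 50 mg/kg, at 6.14 CPM ± 0.736, and in 1 of 4 animals of each other group. With anti-gD it stood at 1.70 CPM ± 3.24 and at 200 mg/kg at 2.01 CPM ± 3.83 (SD, n = 4 animals). The log2 fold change at 50 mg/kg against anti-gD was 1.85 (SE 1.55, edgeR adjusted p 0.900), and it was 6.13 without control animal 1501. ENSMFAG00000001864 had a log2 fold change of -3.20 (SE 1.55, adjusted p 1.00) at 200 mg/kg against anti-gD, which was -3.07 without library 5501B and -1.04 without control animal 1502. Between the doses it was -3.07 (SE 1.54, adjusted p 0.961), -2.94 without library 5501B and 0.04 without animal 4501. In letter B the exact permutation p was under 0.05 for 0 of the 12 genes in both comparisons with anti-gD (2.31% and 1.26% of all genes), and adjusted over all 21537 genes it was 1 for each. The adjusted value decides nothing. The smallest possible p is 0.0286, and with so few genes under 0.05 no gene could reach a low adjusted p. Without library 5501B, the lowest exact permutation p of the 12 at 200 mg/kg was 0.0857.

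**Figure D4:**
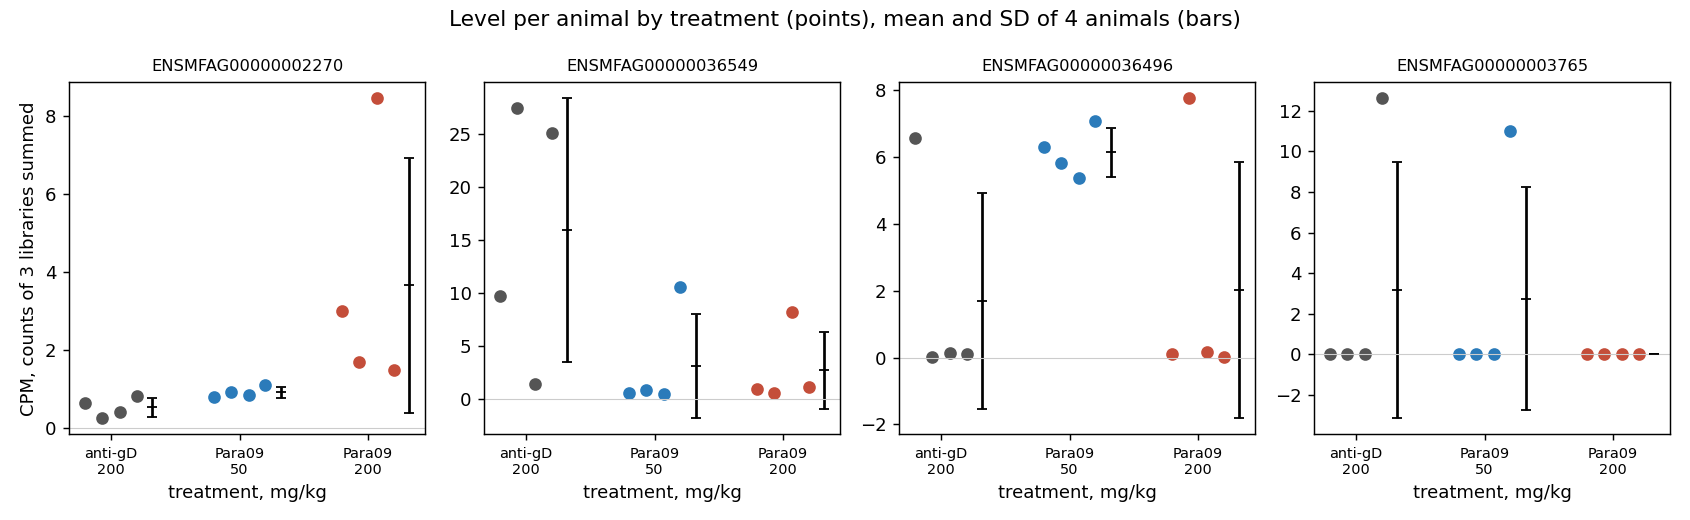
Level per animal in CPM, from counts summed over 3 libraries, of 4 genes by treatment in mg/kg, with 4 animals a group as points and the mean ± SD beside them. ENSMFAG00000002270 is highest in the 4 animals at Para09 200 mg/kg, whereas for ENSMFAG00000036549, ENSMFAG00000036496 and ENSMFAG00000003765 high and low animals occur within a group.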

How the data were processed

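Each of the 36 libraries has a table with a whole-number count, an exonic width and an RPKM per gene, per the file headers. The counts were deposited by the authors without normalisation. The deposited RPKM values are scaled per kilobase of width and per 1e6 of a total, and they were used only to compare levels per length. The aligner in the submitters' processing notes is GSNAP, with its version, the build, the annotation and the handling of strand and of multiply matching reads not given in the sources used here.

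CPM was the count times 1e6 over the sum of counts. The members and lists were chosen with earlier results of these data known, and the rule for named genes took all 12. Libraries of 1 animal were summed, and 4 animals a group were tested with edgeR 4.0.16 (R 4.3.3; TMM, filterByExpr, quasi-likelihood test, 1 fit for the 3 groups). DESeq2 1.42.0 and the other alternatives are in the closing section. Each SE is the size of the log2 fold change divided by the square root of F. Letter B was tested by exact two-sided permutation on log2(CPM + 0.5). Steps between animals were located on log2(CPM + 0.05) and are given as plain ratios of CPM. The rule was tried on a small made table, and the edgeR fit on simulated counts with the same small spread for every gene. That spread is unlike that of the 12 genes, so the simulation does not speak to them. Nothing says whether the 3 libraries of an animal are separate pieces of tissue. The p-values judge differences between group means against the spread between animals. Lists of marker genes were not applied, because no identifier matched a name. Fits and counts without library 5501B, the steps between animals, the ranking of the spread and the comparison of the 2 short genes were chosen after seeing the data.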

Additional observations from a re-analysis of the deposited data

Results flagged for a closer look

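Within the treatment groups, 36 sets of 4 animals (12 genes in 3 groups) were examined for an animal far from the other 3, and 8 had one. The measure was the gap of the outlying animal to its neighbour over the group's range, in CPM. That is 22.2% of the sets, against 7.24% of 52080 sets over all genes tested in edgeR. The 36 sets include ENSMFAG00000003765, which had such an animal with anti-gD and at 50 mg/kg. The edgeR filter removed that gene, so the 52080 sets do not hold it and the shares cover unlike genes. The nominal rate is about 1 in 20, and the genes were chosen for differences between animals. With anti-gD, ENSMFAG00000003765 stood at 12.6 CPM in animal 1504 (next 0.0183 CPM), ENSMFAG00000036496 at 6.55 CPM in animal 1501 (next 0.141 CPM) and ENSMFAG00000001864 at 5.17 CPM in animal 1502 (next 0.847 CPM). At 50 mg/kg, ENSMFAG00000036549 stood at 10.5 CPM in animal 4504 (next 0.893 CPM), ENSMFAG00000003765 at 11.02 CPM in animal 4504 (next 0 CPM) and ENSMFAG00000001864 at 5.24 CPM in animal 4501 (next 0.246 CPM). At 200 mg/kg, ENSMFAG00000036549 stood at 8.18 CPM in animal 5503 (next 1.19 CPM) and ENSMFAG00000036496 at 7.75 CPM in animal 5502 (next 0.180 CPM). All 8 were high in CPM, a scale bounded at 0. On log2(CPM + 0.05), a scale added after seeing the data, 4 of the 36 sets had such an animal, 2 low and 2 high. That is 11.1%, against 8.15% over all genes tested in edgeR, which again leave out ENSMFAG00000003765.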

How the results depend on the processing

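The number of genes depended on the limits: 20 at 1/10 of the highest level, 4 at 1/50, 33 from 2 CPM and 4 from 10 CPM. With the limits unchanged, it was 101 in letter B alone, 69 in letter B without 5501B and 67 in letter B of the 10 animals. There a single library stood for each animal, while the rule asked A and C to agree, so these counts are not comparable with 12. The number was 12 with no limit on width and with TMM-scaled library sizes, both times the same 12. Leaving out 1 of the 10 animals gave 7 to 12, and the 7 came without control animal 1502, where ENSMFAG00000036549, ENSMFAG00000002270, ENSMFAG00000018905, ENSMFAG00000001864 and ENSMFAG00000017288 no longer met the limits. The count of lacking combinations that were low in letter B was 27 of 27, so the looser limit of 1/10 could only give 27 again. It was 25 on the scale of the highest level in A and C. Leaving out 1 animal gave 20 to 25, but this also removed the combinations of that animal. These counts therefore do not measure agreement in B.

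In the treatment comparisons DESeq2 gave no p-value for ENSMFAG00000003765 and ENSMFAG00000036496, so only 10 of the 12 genes could be called by it. The higher dose (200 mg/kg) against anti-gD had 14 genes called by DESeq2, of which 1 was among these 10. The lower dose (50 mg/kg) against anti-gD had 9 genes called, of which 0 were among these 10. The edgeR fits that left out 1 animal called 0 to 1 genes at 200 mg/kg, the 1 without animal 4502. The other edgeR alternatives (RLE size factors, no filter, mean CPM of at least 1, letter B, A and C of 10 animals, without 5501B) called 0. Of the 7 log2 fold changes followed, 1 changed sign: that of ENSMFAG00000001864 between the doses ran from -3.47 to 0.0376 over fits without 1 animal. No permutation p moved across 0.05 with a pseudocount of 0.1 or without 5501B. No paired analysis was possible because the labels pair no animals across groups. Depth limits the low end: 3 counts are 0.0811 to 0.199 CPM.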
